A study of Mus musculus with 12 samples.

Results

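The genes followed here are 8 genes of cholesterol synthesis and its control by the transcription factor SREBP2, namely Idi1, Fdps, Fdft1, Sqle, Cyp51, Hmgcs1, Insig1 and Srebf2. They were chosen by name and matched to the deposited gene table by mouse Ensembl gene ID, where 7 of the 8 have a row among 27412 IDs. Hmgcs1 is not analysed here. RNA came from a thin outer slice of kidney cortex of male C57BL/6 mice without treatment, and both kidneys of each animal were sequenced separately, which gave 12 libraries from 6 animals. The HIF2aM3 group was 3 animals positive for the γ-HIF2αM3 transgene (17-51, 17-53 and 17-56), a mutated form of the hypoxia factor HIF2α. Its promoter is that of the GGT gene (γ-glutamyl transferase), a brush-border enzyme of proximal tubule cells. The WT group was 3 wild-type animals (WT 1, WT 2 and WT 3). Ages are not given in the labels, and neither is which side of the body kidney 1 or kidney 2 came from or whether the 3 transgenic animals belong to 1 line.

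Cells build cholesterol from acetyl-CoA through mevalonate, isoprenoid units, squalene and lanosterol. When sterols in the endoplasmic reticulum are low, the escort protein SCAP carries SREBP2 to the Golgi, where proteases release the part that enters the nucleus and switches on nearly every gene of the pathway. When sterols are plentiful, INSIG proteins hold SCAP back, and Insig1 is itself a target, so the genes tend to move together in many tissues. In liver-derived and other cells, hypoxia and HIF proteins are also known to act on INSIG levels.

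Library totals ran from 24032148 to 43499743 counts, apart from kidney 2 of 17-51 with 4161829, and every member passed the filter on low counts in both comparisons. For each animal the reads of both kidneys were added up, and levels are given as CPM, read counts divided by library size after TMM scaling, which allows for differences in library make-up. In kidney 2 of WT 1, 5 fat markers chosen after their values were seen (Adipoq, Plin1, Cidec, Cfd and Lep) had 326 reads in all, against 0 to 7 reads in each of the other libraries. Epas1, the gene of HIF2α, averaged 267 ± 16.7 CPM in HIF2aM3 animals and 204 ± 30.9 CPM in WT animals (SD, n = 3 each), a log2 fold change of 0.39 ± 0.11 (SE) that missed the threshold (edgeR adjusted p = 0.0881). The sources used here do not say whether transgene reads were counted under Epas1.

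The members spanned a wide range of levels. On the authors' RPKM scale, which divides reads by gene length, HIF2aM3 animals averaged 18.5 RPKM for Cyp51, 10.2 for Srebf2, 6.75 for Sqle, 6.16 for Insig1, 4.66 for Fdft1, 1.66 for Fdps and 0.718 for Idi1. WT animals averaged 21.5 RPKM for Cyp51, 8.68 for Srebf2, 5.33 for Sqle, 4.11 for Fdft1, 3.93 for Insig1, 1.14 for Fdps and 0.522 for Idi1. The order was the same in both genotypes except for Insig1 and Fdft1, which changed places, and in WT animals those neighbours overlapped (2.88 to 5.67 RPKM for Insig1, 3.80 to 4.41 RPKM for Fdft1). The order also rests on the lengths the authors used. Those implied by their values were 12300 bases for Sqle and 1363 for Fdps, whereas the exons of the GENCODE M21 annotation cover 5546 and 4208 bases. Per kilobase of these exons Sqle stood above Srebf2 (14.8 and 13.1 CPM in HIF2aM3, 11.9 and 11.4 CPM in WT), and Idi1 stood above Fdps (1.29 and 0.499 CPM in HIF2aM3, 0.946 and 0.370 CPM in WT), so both of these orders turn with the lengths. Insig1 stood above Fdft1 in both genotypes per kilobase of these exons (5.82 and 3.48 CPM in HIF2aM3, 3.76 and 3.12 CPM in WT), so that with these lengths the pair did not change places.

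The promoters of Cyp51, Insig1 and Srebf2 are shown because Cyp51 and Insig1, and next Insig1 and Srebf2, were the pairs of members whose levels went most closely together across libraries within a genotype. Each is the 250 bases before the start site, 5′ to 3′ on the gene's strand, from RefSeq on build GRCm38.p6. Capitals mark matches to letters searched on both strands. ATCACNNCA is a form of the sterol regulatory element that SREBP2 binds. CCAAT, in either orientation, is bound by NF-Y, a partner of SREBP2. ACGTG is a form of the core of the hypoxia response element that HIF proteins bind. The other form of that core, GCGTG, was not searched and is left unmarked wherever it occurs. The regions are chr5:4104698-4104947 on the minus strand for Cyp51, chr5:28071162-28071411 on the plus strand for Insig1 and chr15:82147019-82147268 on the plus strand for Srebf2.
Cyp51: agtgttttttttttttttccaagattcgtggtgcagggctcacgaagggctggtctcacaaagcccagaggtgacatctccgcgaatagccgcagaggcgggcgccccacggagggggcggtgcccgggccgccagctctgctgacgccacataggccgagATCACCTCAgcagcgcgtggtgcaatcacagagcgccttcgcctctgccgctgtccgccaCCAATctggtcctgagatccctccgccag
Insig1: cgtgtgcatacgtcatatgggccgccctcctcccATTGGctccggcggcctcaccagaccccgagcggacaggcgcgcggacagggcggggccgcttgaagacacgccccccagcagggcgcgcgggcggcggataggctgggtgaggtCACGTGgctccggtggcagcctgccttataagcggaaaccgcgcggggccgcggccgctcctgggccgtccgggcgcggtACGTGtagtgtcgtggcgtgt
Srebf2: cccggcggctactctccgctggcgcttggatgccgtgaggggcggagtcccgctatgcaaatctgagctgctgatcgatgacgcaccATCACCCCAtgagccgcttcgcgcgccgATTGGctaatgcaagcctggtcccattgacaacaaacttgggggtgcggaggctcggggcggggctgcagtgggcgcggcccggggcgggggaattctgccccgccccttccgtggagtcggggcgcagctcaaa

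The Cyp51 promoter held ATCACCTCA from 89 to 81 bases before the start and CCAAT from 29 to 25. The Srebf2 promoter held ATCACCCCA from 163 to 155 bases before the start and an inverted CCAAT from 135 to 131. In Insig1 an inverted CCAAT lay from 216 to 212, and ACGTG was found on both strands, which overlap as CACGTG, from 101 to 96, and again from 21 to 17. Of 32851 mouse promoters of the same length, ATCACNNCA was found in 2.3%, CCAAT in 33.8% and ACGTG in 16.6%. The 9 letters TCACNCCAC, another form of the sterol regulatory element, were in 1.05% of promoters and, of the 5 members with an entry (Cyp51, Hmgcs1, Idi1, Insig1 and Srebf2), in Hmgcs1 alone. ATCACNNCA was chosen after the promoters had been read, and a match describes letters, not binding.

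Between the genotypes, 6 of the 7 sterol genes had a log2 fold change above 0, but none of the 7 passed the threshold of an adjusted p of 0.05. In the edgeR quasi-likelihood fit of all 19564 genes tested, 3.75% of genes passed, 1.93% higher and 1.82% lower in HIF2aM3. At an unadjusted p under 0.05 there were 4 members, Sqle, Idi1, Srebf2 and Insig1, against 24.9% of all genes, and DESeq2 called 1, Sqle (adjusted p = 0.0472). The median of the members' log2 fold changes was 0.31, beside 0.005 over all genes tested, and 50.9% of all genes had a log2 fold change above 0.

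**Figure D1:**
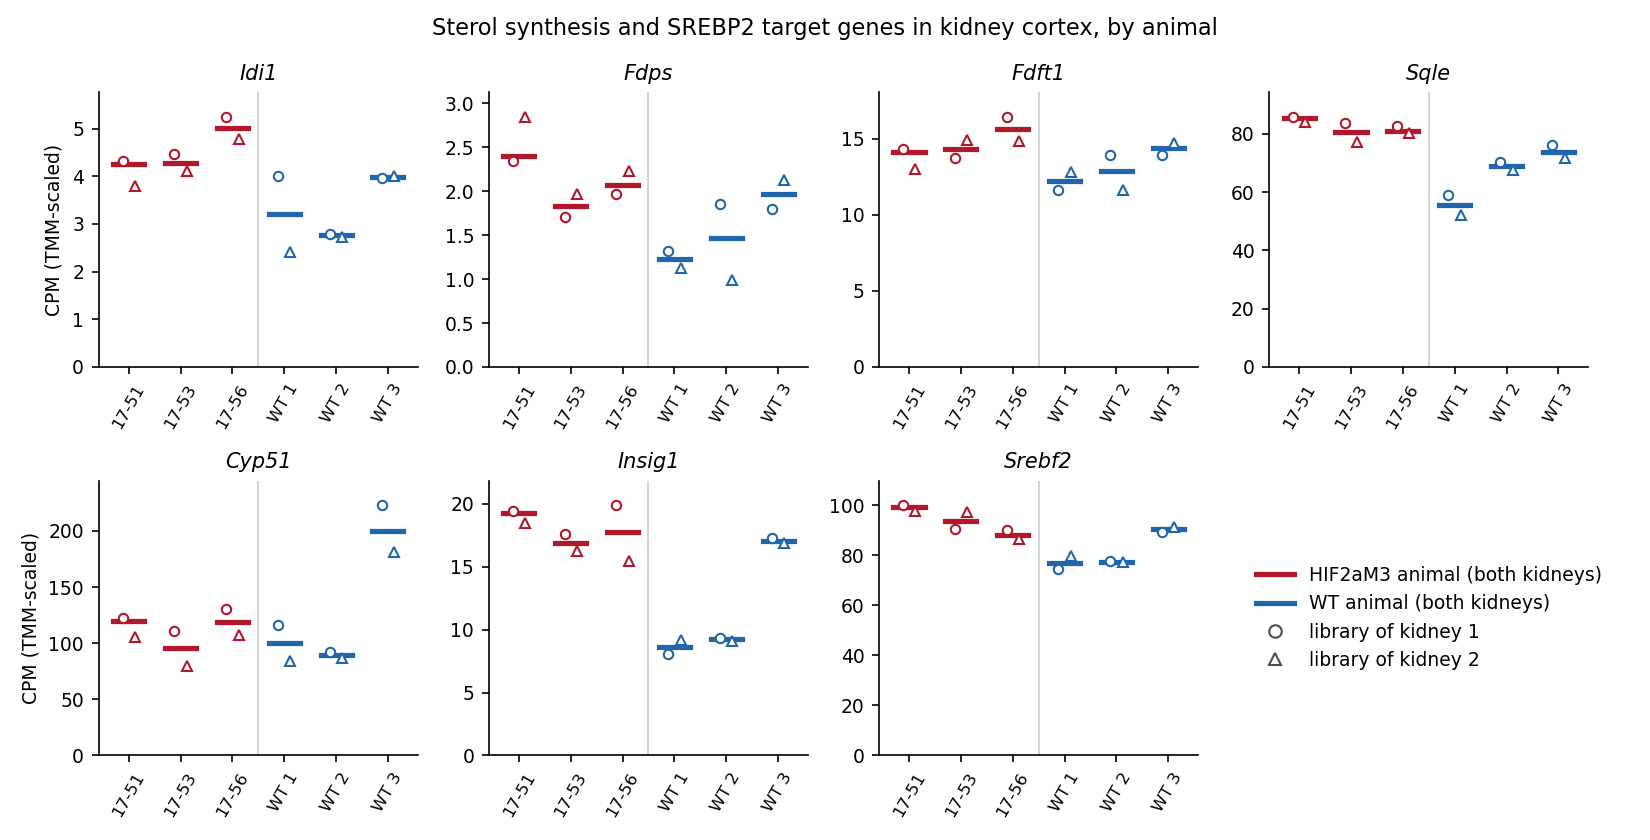
Level of each sterol gene in CPM (vertical axis, from 0) for the 3 HIF2aM3 animals (left, red) and the 3 WT animals (right, blue). Bars are both kidneys of an animal summed, circles are libraries of kidney 1 and triangles of kidney 2; WT 3 is the highest WT animal in all 7 panels, and for Insig1 it lies at 17.0 CPM, against 8.59 and 9.22 CPM in the other WT animals.

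Of the enzymes that build squalene, Idi1 encodes isopentenyl-diphosphate isomerase, which makes the second of the isoprenoid building units. It stood at 4.25, 4.29 and 5.01 CPM in HIF2aM3 animals 17-51, 17-53 and 17-56, and at 3.21, 2.76 and 3.99 CPM in WT 1, WT 2 and WT 3. The genotypes did not overlap, as for 15.5% of all genes with HIF2aM3 higher and 32% in either direction, but the gap between 17-51 and WT 3 was small. This gave a log2 fold change of 0.45 ± 0.15 (SE; 95% interval 0.09 to 0.80; edgeR adjusted p = 0.134), with 791 reads in HIF2aM3 animals and 603 in WT animals.

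Fdps encodes farnesyl diphosphate synthase, whose product feeds both sterols and protein prenylation. It was at 2.40, 1.83 and 2.07 CPM in HIF2aM3 animals and at 1.23, 1.47 and 1.97 CPM in WT animals, so that WT 3 lay within the HIF2aM3 range. Its log2 fold change was 0.42 ± 0.21 (SE; 95% interval -0.06 to 0.89; edgeR adjusted p = 0.255), from 353 reads in HIF2aM3 animals and 287 in WT animals. It was 0.27 without WT 1, and 0.37 without kidney 2 of WT 1 alone.

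Fdft1 encodes squalene synthase, the first enzyme committed to sterols. HIF2aM3 animals had 14.2, 14.3 and 15.6 CPM, against 12.3, 12.9 and 14.4 CPM in WT animals. Again WT 3 lay among the HIF2aM3 animals, and WT 1 and WT 2 below them. Fdft1 had a log2 fold change of 0.16 ± 0.08 (SE; 95% interval -0.03 to 0.35; edgeR adjusted p = 0.274). Leaving out WT 1 gave 0.10, and leaving out kidney 2 of WT 1 alone 0.17.

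Processed pseudogenes nearly identical to these 3 genes carry reads of their own in the table, so these values are uncertain where reads could be placed on either copy. Gm13502 is identical to Idi1 over 684 bases and held 1615 reads in the 12 libraries, more than the 1394 of Idi1. Its log2 fold change was 0.49 ± 0.19 (SE; edgeR adjusted p = 0.160), close to that of Idi1. Gm3571, at 98.9% identity to Fdps over 1062 bases, held 453 reads beside 640 for Fdps and had a log2 fold change of 0.28 ± 0.27 (SE). Gm6781, at 97.4% identity to Fdft1 over 1249 bases, held 1440 reads beside 4982 for Fdft1 and had a log2 fold change of 0.25 ± 0.12 (SE). Exons of Fdft1 also share 774 bases with Ctsb on the opposite strand, whose own log2 fold change was -0.10 ± 0.08 (SE). The sources used here do not say whether counting used strand.

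Sqle encodes squalene epoxidase, a rate-controlling step late in the pathway that needs molecular oxygen. Its level was 85.4, 80.5 and 81.1 CPM in HIF2aM3 animals and at 55.7, 69.1 and 73.8 CPM in WT animals. The HIF2aM3 animals lay close together and above every WT animal, and WT 1 was the lowest. The log2 fold change was 0.31 ± 0.10 (SE; 95% interval 0.08 to 0.55), or 1.24-fold, and it had the smallest p of the members without passing the threshold (edgeR adjusted p = 0.115). Without WT 1 it was 0.20, and without kidney 2 of WT 1 alone, the library with fat markers, 0.29.

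Cyp51 encodes lanosterol demethylase, a cytochrome P450 that also uses oxygen, and was the only member with a log2 fold change below 0. Its level was 119.7, 95.3 and 119.2 CPM in HIF2aM3 animals, against 99.8, 89.2 and 200.2 CPM in WT animals. WT 3 was the highest of all 6 animals, while WT 1 and WT 2 lay near the lowest HIF2aM3 animal. The log2 fold change was -0.22 ± 0.31 (SE; 95% interval -0.96 to 0.51; edgeR adjusted p = 0.697), an interval from 0.515-fold to 1.43-fold. Without WT 3 the sign turned, at 0.23 ± 0.12 (SE; edgeR adjusted p = 0.304).

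Insig1 encodes a sterol sensor of the endoplasmic reticulum that keeps the SREBP precursor from leaving it. It had 19.3, 16.9 and 17.8 CPM in HIF2aM3 animals and 8.59, 9.22 and 17.0 CPM in WT animals. WT 1 and WT 2 were far below the HIF2aM3 animals, and WT 3 lay among them. The log2 fold change of 0.62 ± 0.25 (SE; 95% interval 0.02 to 1.23), or 1.54-fold, had the largest size among the members and missed the threshold (edgeR adjusted p = 0.189). Without WT 3 it was 1.00 ± 0.09 (SE), and Insig1 was then called (edgeR adjusted p = 0.0221). Over all the fits without 1 animal it ran from 0.44 to 1.00, and no other of these fits called Insig1.

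Srebf2 encodes SREBP2 itself and is one of its own targets. HIF2aM3 animals had 99.5, 93.8 and 88.1 CPM, and WT animals had 77.1, 77.3 and 90.4 CPM. WT 3 lay above 17-56, and the other WT animals below every HIF2aM3 animal. Srebf2 had a log2 fold change of 0.20 ± 0.08 (SE; 95% interval 0.01 to 0.38; edgeR adjusted p = 0.174).

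**Figure D2:**
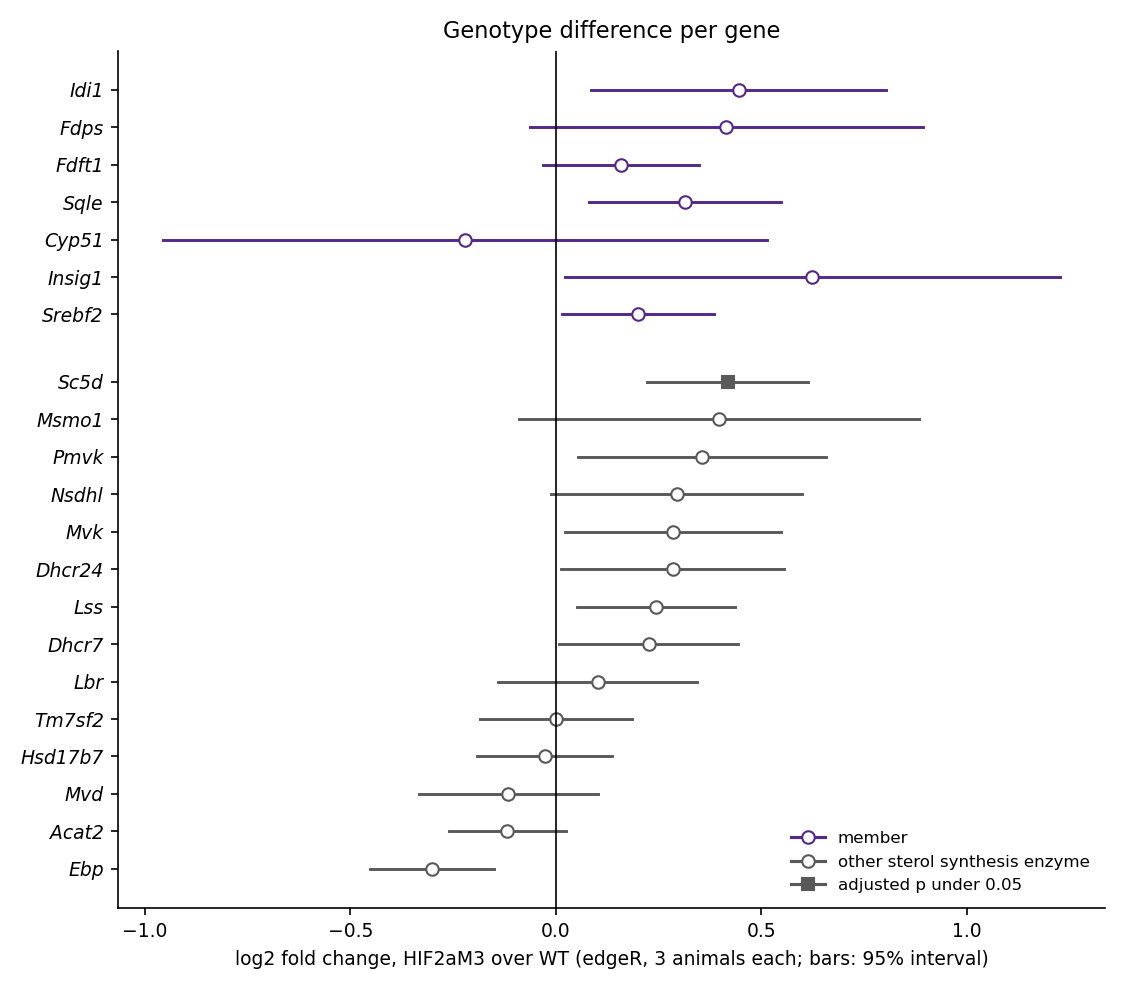
Log2 fold change of HIF2aM3 over WT (horizontal axis) with its 95% interval for the 7 members (top, purple) and 14 of the 15 other sterol synthesis enzymes (bottom, grey); the filled square is the enzyme with an adjusted p under 0.05. Sc5d at 0.42 is the gene called, and the Cyp51 interval, from -0.96 to 0.51, is the widest of the members.

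The authors' deposited table gives log2 fold changes of the same sign for all 7 members, from -0.22 for Cyp51 to 0.65 for Insig1. In the authors' deposited table the q-values of a test that set the HIF2aM3 libraries against the WT libraries are 0.0263 for Sqle, 0.0245 for Srebf2, 0.037 for Idi1, 0.0426 for Insig1, 0.107 for Fdps, 0.126 for Fdft1 and 0.731 for Cyp51. Taking the 12 libraries as replicates in edgeR likewise called those 4 genes, with adjusted p of 0.00914 for Sqle, 0.0221 for Srebf2, 0.0289 for Idi1 and 0.0375 for Insig1. Those calls count the 2 kidneys of an animal as independent samples. The same setting called 4829 genes in all, against 733 with the animal as replicate.

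The spread between WT animals was wider than between HIF2aM3 animals for 7 of 7 members. For Cyp51 the SD of log2 CPM was 0.19 in HIF2aM3 animals and 0.63 in WT animals, and the highest WT animal was 2.24-fold above the lowest. For Insig1 the SDs were 0.10 in HIF2aM3 and 0.54 in WT animals, and for Sqle 0.05 and 0.21 in the same order. In that order they were 0.13 and 0.27 for Idi1, 0.20 and 0.34 for Fdps, 0.08 and 0.12 for Fdft1, and 0.09 and 0.13 for Srebf2. Over all genes tested the median SDs were 0.11 in HIF2aM3 animals and 0.12 in WT animals. The WT values of Fdft1 and Srebf2 thus lay near the median of all genes. The share of all genes with a wider spread in WT animals was not counted. Each SD rests on 3 animals, and the difference in spread was not tested.

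WT 3 was the highest WT animal for 7 of 7 members and for 12 of 15 other sterol synthesis enzymes, as for 30.3% of all genes tested. WT 2 lay below every HIF2aM3 animal for 7 of 7 members and WT 1 for 6 of 7, against 32.6% and 35% of all genes, whereas WT 3 did so for 2 of 7, Sqle and Idi1 (33.6% of all genes). Both libraries of WT 3 had this pattern for Insig1, at 17.3 CPM in kidney 1 and 16.9 CPM in kidney 2, against 8.02 to 9.36 CPM in the 4 libraries of the other WT animals. The labels give no difference in handling between the WT animals.

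**Figure D3:**
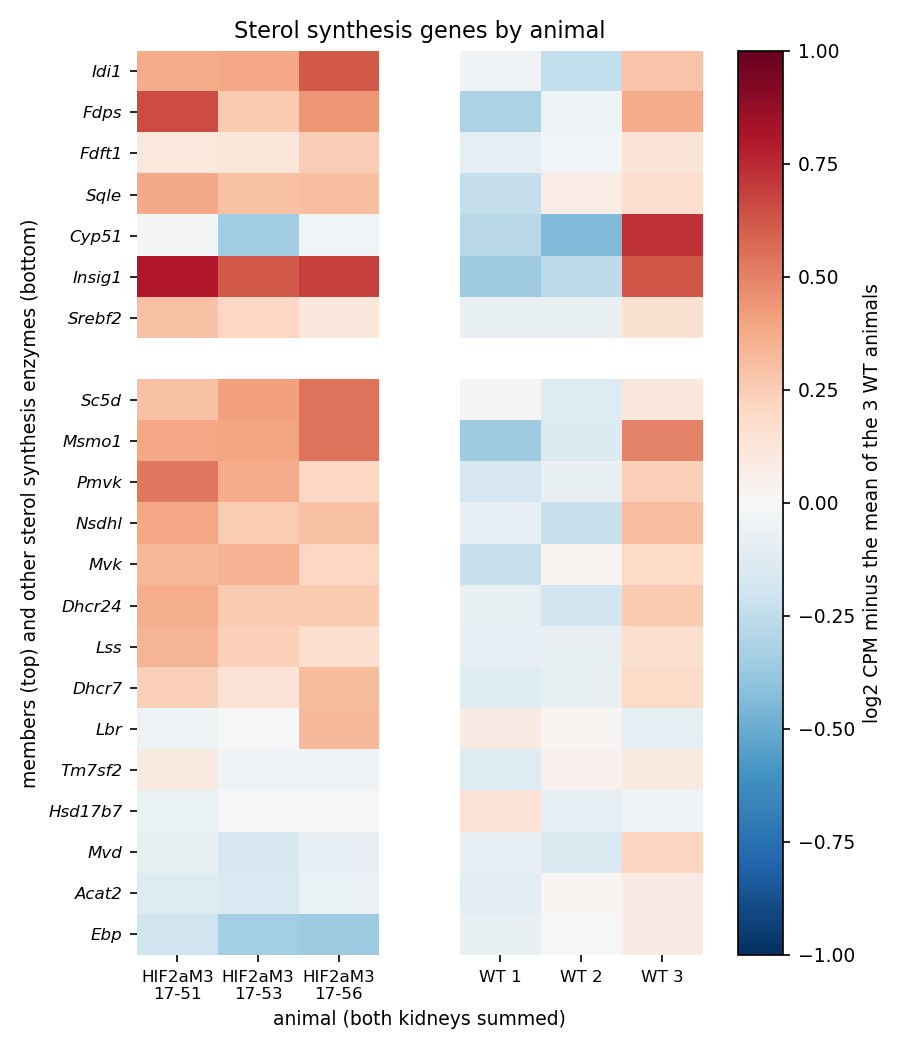
Log2 CPM of each gene minus the mean of the 3 WT animals (colour, red above and blue below), for HIF2aM3 animals (left) and WT animals (right), with the 7 members at the top and 14 of the 15 other sterol synthesis enzymes below. WT 3 is red for all 7 members, at 0.72 for Cyp51 and 0.62 for Insig1, while WT 1 and WT 2 are at -0.36 and -0.26 for Insig1.

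Cholesterol synthesis has a daily rhythm in liver, and some clock genes also varied between the WT animals. Dbp, a clock output gene chosen after its values were seen, was at 30.2, 52.4 and 53.6 CPM in HIF2aM3 animals and at 37.7, 106.7 and 32.3 CPM in WT 1, WT 2 and WT 3. Per2, the clock gene with the smallest p, was at 13.0, 16.7 and 13.7 CPM in HIF2aM3 animals and at 21.9, 34.6 and 15.8 CPM in WT animals. Both were highest in WT 2, and WT 3 was the lowest WT animal for both. Arntl and Npas2, also chosen after their values were seen, were highest in WT 3 and lowest in WT 2 among the WT animals. In WT 1, WT 2 and WT 3, Arntl was at 8.95, 6.28 and 13.2 CPM and Npas2 at 10.8, 3.49 and 15.7 CPM. Of the 15 clock genes none was called between the genotypes and 1 had an unadjusted p under 0.05 (edgeR). The part of the clock in the sterol genes was not tested.

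Within a genotype the members' levels were positively related across libraries. After the mean of each genotype was subtracted, Pearson's r of log2 CPM over the 12 libraries was above 0 for 21 of 21 pairs, with a median of 0.568. It was highest for Cyp51 and Insig1 at 0.873 and for Insig1 and Srebf2 at 0.845, the genes whose promoters are printed above, and lowest for Idi1 and Srebf2 at 0.179. The 12 points are pairs of kidneys of 6 animals, and include both kidneys of WT 3, so these are descriptions. No median r over other pairs of genes was computed for comparison. The genes whose pattern was most like the mean of the members were Gm9826 (r = 0.949), Mvd (0.945), Snx31 (0.944), Elovl7 (0.940) and Ak3 (0.936). Gm9826 had a mean of only 0.640 CPM. Mvd, mevalonate diphosphate decarboxylase, is the sterol synthesis enzyme just before Idi1 in the pathway.

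Of 15 other sterol synthesis enzymes, 1 rose in HIF2aM3 animals, none fell and 14 were not called, with a median log2 fold change of 0.23. The log2 fold change was above 0 for 10, and 7 had an unadjusted p under 0.05 (edgeR), against 50.9% and 24.9% of all genes. The same 24.9% stands beside such counts of the lists that follow. The genotypes did not overlap for 3 with HIF2aM3 higher and for 1 with HIF2aM3 lower. Over all genes tested, 15.5% did not overlap with HIF2aM3 higher and 32% in either direction. The enzyme that was lower without overlap was Ebp, chosen after its values were seen, at -0.30 ± 0.07 (SE). It narrowly missed the threshold (edgeR adjusted p = 0.0508). Sc5d, sterol C5-desaturase, which uses oxygen near the end of the pathway, was at 50.3, 54.5 and 59.6 CPM in HIF2aM3 animals and at 41.4, 37.4 and 44.3 CPM in WT animals, without overlap. Its log2 fold change was 0.42 ± 0.08 (SE; edgeR adjusted p = 0.0431). The call was lost in 5 of 6 fits without 1 animal (it held without WT 2) and without kidney 1 of WT 2, kidney 1 of WT 3 or either kidney of 17-56, with log2 fold changes from 0.35 to 0.48 over all settings.

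Among 16 genes of SREBP processing and sterol sensing, such as Scap, the site proteases and ubiquitin ligases of the endoplasmic reticulum, none was called in either direction, 5 had an unadjusted p under 0.05 and the median log2 fold change was 0.06 (edgeR; DESeq2 called 0, and limma-voom, fitted to 12 libraries with animals as random blocks, 4). The smallest p belonged to Rnf145, a sterol-responsive ubiquitin ligase, at 180 ± 8.75 CPM in HIF2aM3 animals and 146 ± 21.0 CPM in WT animals (SD, n = 3 each; log2 fold change 0.29 ± 0.10, SE; edgeR adjusted p = 0.138; 0.19 without WT 1).

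Of 15 genes of sterol uptake and transport none was called, 6 had an unadjusted p under 0.05 and the median was 0.09 (edgeR; DESeq2 called 4 and limma-voom 4). Mylip, which encodes a ubiquitin ligase induced by LXR, had the smallest p, with 51.8, 47.6 and 39.3 CPM in HIF2aM3 animals and 35.1, 34.4 and 29.5 CPM in WT animals (log2 fold change 0.49 ± 0.11, SE; edgeR adjusted p = 0.0616).

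Of 8 genes of the sterol-activated LXR receptors and sterol efflux, 6 were tested and 1 fell. Of these 6, 4 had a log2 fold change above 0 and 3 had an unadjusted p under 0.05 (edgeR), with a median of 0.12. Nr1h3, which encodes LXRα, was at 33.2, 32.6 and 31.1 CPM in HIF2aM3 animals and at 49.0, 41.4 and 44.4 CPM in WT animals, a log2 fold change of -0.48 ± 0.07 (SE; edgeR adjusted p = 0.0235). The call held in 12 of 12 fits without 1 library and was lost in 5 of 6 without 1 animal, where it held without WT 2 and the log2 fold change stayed between -0.54 and -0.35 in all settings. Of 11 genes of sterol esterification and oxysterol metabolism none was called and 3 had an unadjusted p under 0.05 (edgeR; DESeq2 called 1 and limma-voom 1), with a median of -0.04. Cyp7b1, an oxysterol hydroxylase, was at 3.29, 4.83 and 4.53 CPM in HIF2aM3 animals and at 13.4, 5.43 and 30.1 CPM in WT animals (log2 fold change -1.93 ± 0.59, SE; edgeR adjusted p = 0.114). WT 3 was again the highest WT animal, here far from the HIF2aM3 animals. Without WT 3 the log2 fold change was -1.13, and over the other settings it ran from -2.36 to -1.26. Cyp7b1 was called in 1 of 6 fits without 1 animal (without WT 2, at -2.35, edgeR adjusted p = 0.0349), with DESeq2 (adjusted p = 0.0440) and with 12 libraries as replicates (edgeR adjusted p = 0.0361).

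Farnesyl diphosphate, the product of Fdps, also leaves the sterol route for dolichol, ubiquinone and protein prenylation. Of 11 genes of this branch 1 fell, and the median was -0.10. Dhdds, a subunit of the dolichol chain synthase, was at 61.9, 59.7 and 63.9 CPM in HIF2aM3 animals and at 72.8, 75.7 and 71.3 CPM in WT animals (log2 fold change -0.25 ± 0.05, SE; edgeR adjusted p = 0.0467). That call was lost in 5 of 6 fits without 1 animal, holding without WT 2, and in 5 of 12 without 1 library: WT 1 kidney 2, WT 2 kidney 1, WT 3 kidney 2, 17-51 kidney 1 and 17-56 kidney 2. It was also lost in each kidney alone, with library size alone and with limma on RPKM plus 1 or plus 0.1, and the log2 fold change ran from -0.29 to -0.15 over all settings, -0.15 being with limma on RPKM plus 1.

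Fatty acid synthesis genes answer mostly to SREBP1. Of 14 such genes 2 rose and none fell, with a median of 0.13. Elovl6, a fatty acid elongase, was at 33.0, 29.0 and 30.6 CPM in HIF2aM3 animals and at 18.8, 23.3 and 21.1 CPM in WT animals (log2 fold change 0.55 ± 0.09, SE; edgeR adjusted p = 0.0279). Me1, malic enzyme, which supplies NADPH, was at 373, 355 and 334 CPM in HIF2aM3 animals and at 238, 237 and 293 CPM in WT animals (log2 fold change 0.47 ± 0.10, SE; edgeR adjusted p = 0.0450). Leaving out 1 animal ended the Elovl6 call in 5 of 6 fits, where it held without WT 2, and the Me1 call in 5 of 6, where it held without WT 3; leaving out 1 library ended the Elovl6 call in 0 of 12 fits and the Me1 call in 5 of 12 (WT 1 kidney 2, WT 2 kidney 1, WT 3 kidney 2, 17-53 kidney 1 and 17-56 kidney 1).

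The slices are mixed tissue, in which fewer cells of a type and less RNA per cell cannot be told apart. Of 7 endothelial markers 3 rose (Kdr, Emcn and Erg), with a summed level of 394 to 402 CPM in HIF2aM3 animals and 238 to 339 CPM in WT animals. Of 6 leukocyte markers 1 rose, Csf1r, and their sum was 91.3 to 106 CPM in HIF2aM3 and 51.7 to 79.1 CPM in WT. Csf1r supplied most of that sum, at 58.7 to 66.0 CPM in HIF2aM3 animals and 35.6 to 47.5 CPM in WT animals. The genotypes did not overlap for 2 of these 6 markers, with HIF2aM3 higher, beside 15.5% of all genes, and the other markers overlapped. Of 10 collecting duct markers 3 fell (Aqp3, Avpr2 and Foxi1; 546 to 689 CPM in HIF2aM3, 784 to 809 CPM in WT). Of 10 proximal tubule markers, the cells in which the GGT promoter is active, Slc5a12 rose and Slc22a6 fell, and the sum was 17096 to 18681 CPM in HIF2aM3 animals and 18670 to 19261 CPM in WT animals. Of 8 markers of the loop of Henle and the distal tubule 0 were called (4287 to 4696 CPM in HIF2aM3, 4831 to 6274 CPM in WT; 4 at an unadjusted p under 0.05). Of 6 markers of fibroblasts and mural cells 0 were called and 3 had an unadjusted p under 0.05 (edgeR), with a median log2 fold change of 0.52, beside 0.48 for endothelium. Their summed level was 212 to 299 CPM in HIF2aM3 animals and 124 to 204 CPM in WT animals, with no overlap. The lists for podocytes and liver had 0 called in edgeR, with 1 and 2 markers at an unadjusted p under 0.05. Of 7 adipose markers 2 were tested, with 0 called and 1 at an unadjusted p under 0.05 (edgeR), and the sum was 41.6 to 48.3 CPM in HIF2aM3 animals and 41.4 to 64.5 CPM in WT animals, WT 1 being the highest. The 5 that were not tested lay between 0 and 0.0349 CPM in HIF2aM3 animals, between 0.574 (Plin1) and 2.39 CPM (Cidec) in WT 1 and between 0 and 0.0465 CPM in the other WT animals. Without kidney 2 of WT 1, which held nearly all of these reads, 0 members were called and Idi1, Insig1, Srebf2 and Cyp51 had log2 fold changes of 0.35, 0.63, 0.21 and -0.28. No marker of these lists with a row was at 0 reads in every library. The part of these cell types in the values of the sterol genes was not tested. Adrenal cortex, a tissue rich in sterol enzymes that lies beside the kidney, had 5 of 9 markers in the table and 4 tested, 0 called (0 at an unadjusted p under 0.05), and a summed level of 6.65 to 7.29 CPM in HIF2aM3 animals and 6.72 to 7.46 CPM in WT animals.

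The kidneys of the same animal were set against each other, kidney 1 over kidney 2, in a fit that gives each animal its own level. Of 19034 genes tested 17 passed the threshold, 0.0893% of genes in either direction and 0.0788% higher in kidney 1 (edgeR). Cyp51 was 1 of them and the only member; at an unadjusted p under 0.05 there were 2 members, Cyp51 and Sqle, against 8.45% of all genes. It was at 122, 111 and 130.0 CPM in kidney 1 of 17-51, 17-53 and 17-56, against 106, 79.3 and 107 CPM in kidney 2. In WT 1, WT 2 and WT 3 it was at 116, 91.7 and 223 CPM in kidney 1, against 83.9, 86.5 and 181 CPM in kidney 2. Kidney 1 was the higher in 6 of 6 animals, with a log2 ratio from 0.08 in WT 2 to 0.48 in 17-53.

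The fitted log2 fold change of kidney 1 over kidney 2 was 0.31 ± 0.05 (SE; 95% interval 0.21 to 0.41; edgeR adjusted p = 0.0315), or 132 CPM in kidney 1 and 107 CPM in kidney 2 on average. The log2 fold change stayed between 0.27 and 0.35 in 14 other settings, but the call was kept in 5 of them. Without 1 animal the edgeR adjusted p was 0.0867 without WT 1, 0.188 without WT 3, 0.106 without 17-51, 0.0593 without 17-53 and 0.200 without 17-56, and 0.000333 without WT 2. It was 0.248 with library size alone and 0.0623 with a mean of at least 1 CPM. Exons of Cyp51 share 166 of 4415 bases with Akap9 on the opposite strand, and Akap9 had a log2 fold change of -0.04 ± 0.09 (SE; edgeR adjusted p = 0.948) between the kidneys.

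The other members did not pass. Sqle was higher in kidney 1 in 6 of 6 animals, but by a log2 fold change of 0.09 ± 0.03 (SE; edgeR adjusted p = 0.422). Insig1 and Idi1 were higher in kidney 1 in 5 of 6 animals, at 0.09 ± 0.06 and 0.18 ± 0.10 (SE), and the Idi1 value holds 1 animal far from the others, WT 1 at a log2 ratio of 0.73. Srebf2 was at -0.03 ± 0.03 (SE), with 3 of 6 animals higher in kidney 1. Fdft1 was at 0.02 ± 0.06 (SE; 3 of 6) and Fdps at 0.02 ± 0.15 (SE; 2 of 6), and the Fdps ratio ran from -0.28 in 17-51 to 0.90 in WT 2. Over the 15 other sterol synthesis enzymes the median log2 fold change between the kidneys was 0.03.

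**Figure D4:**
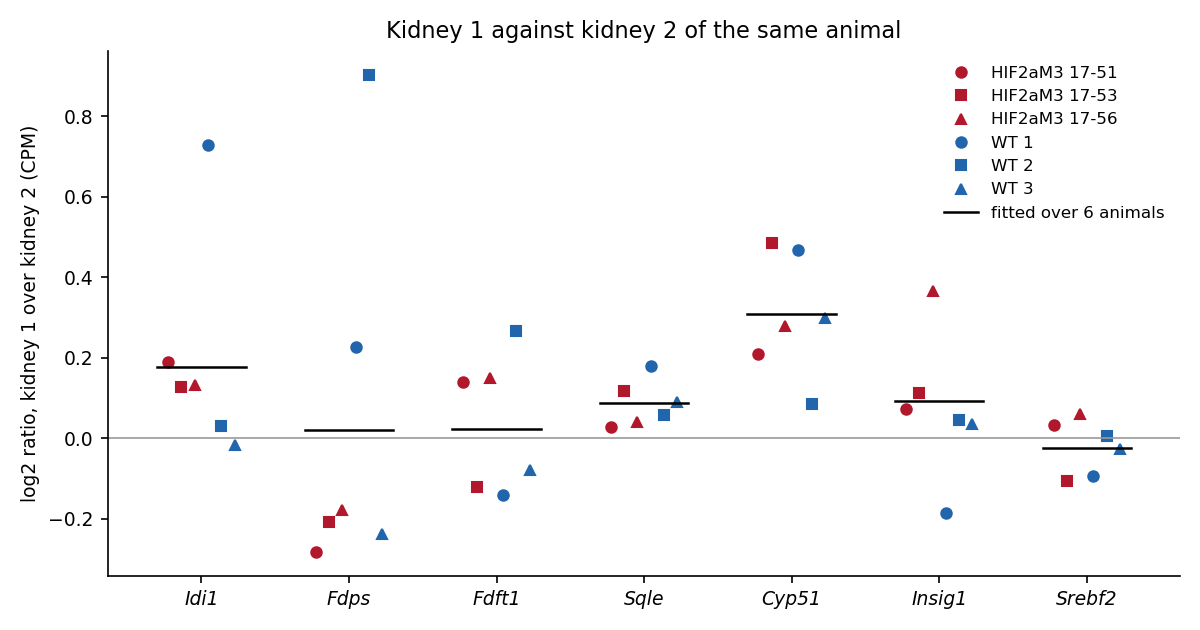
Log2 ratio of CPM in kidney 1 over kidney 2 of the same animal (vertical axis) for each member, with HIF2aM3 animals in red and WT animals in blue; the black line is the value fitted over the 6 animals. Cyp51 lies above 0 in 6 of 6 animals, with a fitted value of 0.31, and Sqle does so at 0.09.

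Whether the kidney difference itself differed between the genotypes was tested with a genotype by kidney term. In edgeR 0 of 19034 genes passed, 588 (3.09%) had an unadjusted p under 0.05, among them no member, and each member had an adjusted p of 1.00. The largest member terms were -0.47 ± 0.30 (SE) for Fdps and 0.22 ± 0.11 (SE) for Insig1, and for Cyp51 the term was 0.05 ± 0.10 (SE; 95% interval -0.16 to 0.27).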

How the data were processed

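Libraries were made with the TruSeq RNA kit, per the labels' protocols, and the submitters' processing notes name build mm9. The aligner, the counter and the use of strand are not given in the sources used. The authors deposited raw read counts per gene and library, RPKM in which a gene with 0 reads has a value above 0, a log2 fold change of mean RPKM, and t-test q-values, per the file headers. Symbols came from GENCODE M21, which matched 24630 IDs; that annotation is on another build and gave names, exon lengths, overlaps and copies (blastn, at least 90% identity over 200 bases), not coordinates.

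The counts of an animal's kidneys were added up and tested with edgeR 4.0.16 (R 4.3.3; filterByExpr, TMM, robust quasi-likelihood, two-sided, Benjamini-Hochberg over all genes tested, threshold 0.05). SE is the size of the log2 fold change divided by the root of F, and 95% intervals use the t distribution with the fit's degrees of freedom. The test was checked on simulated data in which every gene had the same dispersion. With true log2 fold changes of 0.25, 0.5 and 1 in size, the genotype test called 0%, 36% and 96% of 50 genes each. The simulation was not matched to the spread of each member. It does not cover genes of wider spread, such as Cyp51 and Insig1, whose SDs of log2 CPM within a genotype were 0.47 and 0.39. Alternatives covered the replicate unit (limma 3.58.1 included), kidneys, DESeq2 1.42.0, scaling, filters, RPKM with pseudocounts of 1 and 0.1, and leaving out each animal and library.

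The members and lists were chosen with earlier results of these data known. Named genes were the members, Epas1, up to 4 called genes of each pathway list or the 1 with the smallest p, the 5 genes most like the members, and called cell type markers; others are said to be chosen after their values were seen. Of the members, 5 of 8 have a RefSeq promoter entry. No pair of numbers links WT and HIF2aM3 animals. Some genes of the lists are counted but not reported singly here.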

Additional observations from a re-analysis of the deposited data

How the results depend on the processing

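With 3 animals a genotype, the number of genes called depended on the setting. Against 733 genes, 12 libraries as replicates gave 4829, limma-voom with the animal as a random block 2795, DESeq2 2038, kidney 2 alone 337, and limma on RPKM plus 1 or plus 0.1 gave 114 and 140; leaving out 1 animal or library gave 11 to 1549. Of the 7 members, 0 were called by edgeR with the animal as replicate, 4 with 12 libraries, 3 with limma-voom (Sqle, Insig1 and Srebf2), 1 with DESeq2 (Sqle), and 0 to 1 without 1 animal or library, Insig1 being called without WT 3. Over 29 other settings the log2 fold change ran from 0.20 to 0.39 for Sqle, 0.18 to 0.60 for Idi1, 0.25 to 0.63 for Fdps, 0.10 to 0.22 for Fdft1, 0.44 to 1.00 for Insig1, 0.15 to 0.27 for Srebf2 and -0.44 to 0.23 for Cyp51, which turned its sign without WT 3 (0.23) and in no other setting. Leaving out the shallow kidney 2 of 17-51 called no member.

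Between the kidneys, 17 genes were called, and no animal block gave 0, DESeq2 64, library size alone 9, no count filter 62 and the 3 WT animals only 1; leaving out 1 animal gave 4 to 91. The 1 member called, Cyp51, became 0 with no animal block, library size alone, a mean of at least 1 CPM and the 3 WT animals only, and 0 to 1 without 1 animal. The sign of an uncalled kidney difference turned for Fdps (-0.0061 with library size alone, -0.21 in the 3 HIF2aM3 animals, and -0.15 to 0.087 without 1 animal), for Fdft1 (-0.0043 with library size alone, and -0.029 to 0.061 without 1 animal) and for Insig1 (-0.021 in the 3 WT animals). The genotype by kidney term called 0 members in each setting. The cause of these differences was not tested. WT animals could not be paired with HIF2aM3 animals, because the animals of the genotypes share no replicate numbers. Fdps and Idi1 have the fewest reads, which limits their precision.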
